A study of Mus musculus with 10 samples.

Results

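Vitamin A reaches the gut as retinyl esters and carotenoids and is turned into retinoic acid inside the epithelium. Bco1 cleaves beta-carotene to retinal, the binding protein Rbp2 carries retinol and retinal in the absorptive enterocyte, aldehyde dehydrogenases such as Aldh1a1 oxidize retinal to retinoic acid, and the binding proteins Crabp1 and Crabp2 hold retinoic acid before it meets the nuclear receptors Rara, Rarb and Rarg. These receptors pair with retinoid X receptors on direct repeats of a short DNA unit, and Rarb is itself a classical retinoic acid target. The 9 genes described here are Bco1, Rbp2, its relative Rbp7, Aldh1a1, Crabp1, Crabp2, Rara, Rarb and Rarg, chosen by name from the 31053 genes of the deposited matrices, with their UMI counts (unique molecular identifiers, each standing for a captured transcript molecule) read per library and per cell class of the deposited annotation.

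The series holds 8 droplet-based single-cell libraries of mouse intestinal organoids and 2 of colonic crypts. ENR-organoids (3 libraries, passages 2, 7 and 3) were crypts of the proximal small intestine cultured with R-Spondin 1, Noggin and EGF. Hyper-organoids (3 libraries, passages 1, 6 and 3) grew in a medium of EGF, FGF2, R-Spondin 1 conditioned medium, LDN193189, GSK-3 Inhibitor XV, Pexmetinib, the histone deacetylase blocker VPA and EPZ6438, which blocks the methyltransferase EZH2. The -VE-organoids (2 libraries, passages 1 and 6) grew in that medium without VPA and EPZ6438, and, like the first 2 Hyper libraries, were started from ENR-organoids. The third ENR and the third Hyper library were started from primary crypts, and 1 colonic library came from normal mice and 1 from mice given dextran sulfate sodium (DSS), which injures the colonic epithelium. The methods give an age of 6 to 12 weeks for mice used for organoid culture and of 8 weeks for the females of the colitis model, and neither strain, age nor animal is tied to a library in the labels. Libraries 1 of the 3 organoid groups share a prefix in their labels, as do libraries 2 and, of ENR and Hyper, libraries 3. Each such set is called a culture series here. No label says what the prefix marks, and the series also differ in passage and in the cells they were started from.

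The authors kept 25204 cells. Organoid libraries held 1983 to 4293 kept cells and 89124015 to 170019527 UMIs, so that 3 counts in a library corresponded to 0.0176 to 0.0337 CPM (UMIs per 1000000 UMIs). The epithelial markers Epcam, Krt8, Krt18, Cdh1 and Vil1 were present in all libraries and summed to 3499 to 4316 CPM in organoids. The summed level of 5 stromal markers was 0.0449 to 0.107 CPM in ENR and -VE libraries and 0.532 to 0.83 CPM in Hyper libraries. The 4 endothelial markers Pecam1, Egfl7, Cdh5 and Kdr summed to 9.22 to 12 CPM in ENR and -VE and 24.8 to 28.2 CPM in Hyper libraries, with Cdh5 and Kdr both at 0 in 6 of the 8 organoid libraries. The 4 leukocyte markers summed to 0.146 to 0.317 CPM in ENR and -VE and 0.591 to 1.46 CPM in Hyper libraries, and the part of these markers in the results was not tested. All 9 genes had counts in organoids and passed the filter on low counts over all kept cells, Crabp1 only through the Hyper libraries.

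For 2 of the genes a regulatory sequence can be shown beside the counts, because their promoter windows hold a repeat that nuclear receptors are known to read. RefSeq windows (build GRCm38.p6, 250 bases before to 50 after a transcript start) were present for 8 of the 9 genes, and not for Crabp2. They were searched on both strands for AGGTCA (or AGTTCA, or GGGTCA, or GGTTCA) followed by another of these units after 1, 2 or 5 bases (DR1, DR2 and DR5). The Rarb window at chr14:16575427-16575726, on the minus strand, held a DR5, printed in capitals, that begins 53 bases before the start. The Bco1 window at chr8:117095615-117095914, on the plus strand, held a DR1 that begins 56 bases before the start and lies on the opposite strand, where it reads AGGTCAAAGGTCA.
Rarb: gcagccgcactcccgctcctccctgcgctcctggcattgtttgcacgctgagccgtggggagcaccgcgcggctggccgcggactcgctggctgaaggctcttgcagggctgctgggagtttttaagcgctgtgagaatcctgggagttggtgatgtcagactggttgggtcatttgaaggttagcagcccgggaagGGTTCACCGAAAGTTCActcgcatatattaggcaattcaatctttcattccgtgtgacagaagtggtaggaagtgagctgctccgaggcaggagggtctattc
Bco1: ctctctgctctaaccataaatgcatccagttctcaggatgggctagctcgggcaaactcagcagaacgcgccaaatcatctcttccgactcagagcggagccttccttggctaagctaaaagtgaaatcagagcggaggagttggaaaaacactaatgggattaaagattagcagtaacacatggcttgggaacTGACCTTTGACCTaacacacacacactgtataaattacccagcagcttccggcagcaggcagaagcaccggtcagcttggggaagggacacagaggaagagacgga
Of all 32851 windows, 0.0974% held a DR5, 0.222% a DR1 and 0.268% a DR2, and no window of the other 6 genes held any of these 3 repeats. A match is a run of letters and not a measured binding site.

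Across the media 7 of the 9 genes fell into 3 patterns, while Rarb and Crabp2 are described on their own further on. Rbp2, Rbp7 and Aldh1a1 were highest in ENR-organoids and lowest in Hyper-organoids. Bco1, Rarg and Crabp1 were higher in Hyper-organoids than in both other groups. Rara was level. The groups were compared by edgeR's quasi-likelihood test on UMIs summed per library, and a call needed both a 2-fold change and an adjusted p (Benjamini-Hochberg) below 0.05. Levels per library are CPM on TMM-scaled library sizes, and levels per class and marker sums are plain CPM. Of the 9 genes, 4 were called higher and 3 lower in Hyper- than in ENR-organoids, where 22.9% of all 16037 genes tested were called, 18.2% higher and 4.75% lower. Against -VE-organoids 4 were again called higher and 3 lower, beside 18.6% of all genes (16.1% higher, 2.51% lower). Crabp1 is among the higher genes in both counts, and because it passed the filter only through the libraries in which it was high, its call had to follow. Between -VE- and ENR-organoids 2 were called, both lower in -VE, beside 2.55% of all genes (1.35% higher, 1.2% lower). These 3 comparisons share libraries. The 9 genes were chosen with earlier results of these data known, so their counts beside the shares of all genes are descriptions. The Hyper and ENR libraries did not overlap for 8 of the 9 genes, 5 higher and 3 lower, while over all genes 32.7% were higher and 31.6% lower in every Hyper library. Hyper and -VE libraries did not overlap for 5 genes higher and 3 lower (34.2% and 32.9% of all genes), and -VE and ENR libraries for 1 higher, Rarg, and 4 lower (23.8% and 21.9%). Crabp1 is among the 5 higher genes against ENR and against -VE, and for the reason given above its lack of overlap is not read as a result.

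**Figure D1:**
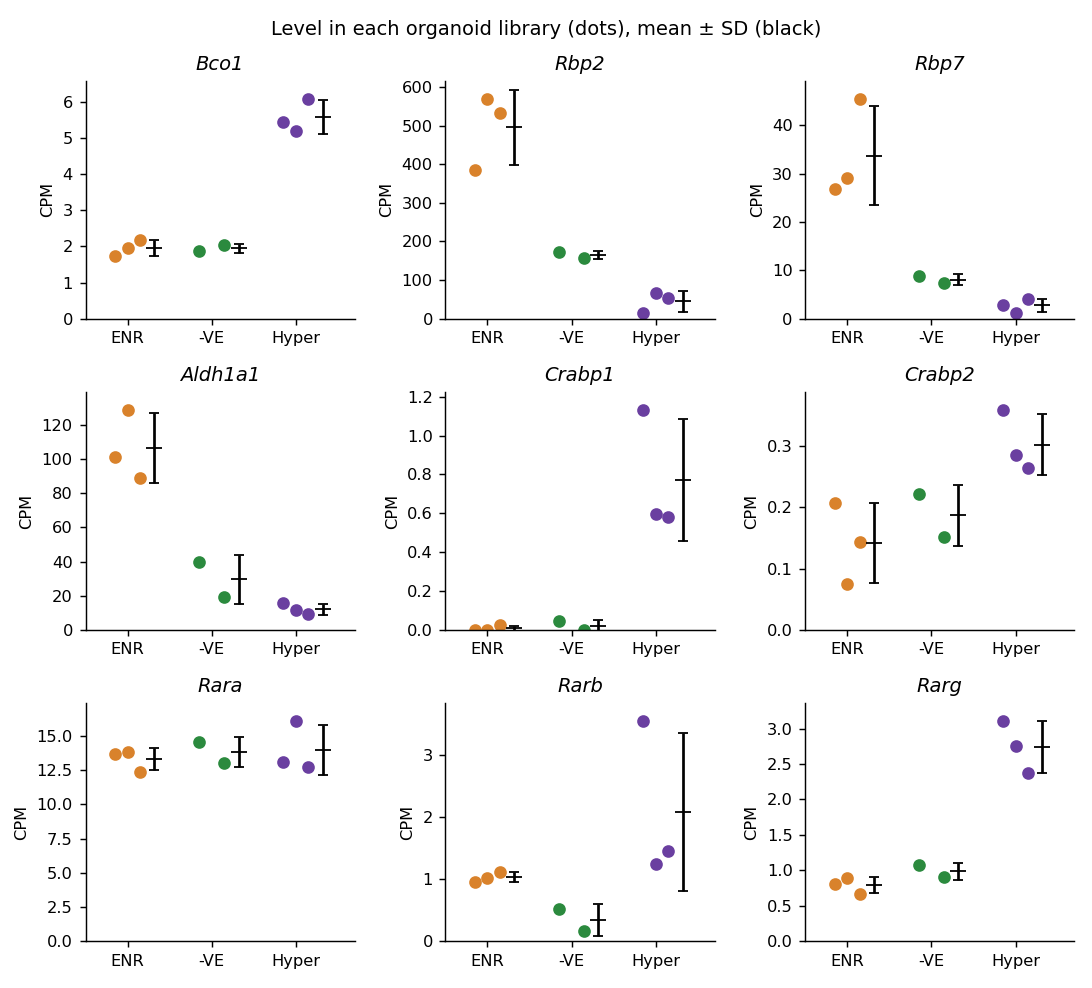
Level of each gene in CPM (y axis, from 0) in the 8 organoid libraries, grouped by medium on the x axis; dots are libraries and the black bar is the mean ± SD (n = 3 ENR, 2 -VE, 3 Hyper). Bco1, Rarg and Crabp1 sit highest in the 3 Hyper libraries, Rbp2, Rbp7 and Aldh1a1 in the 3 ENR libraries, and Rara between 12.4 and 16.1 CPM in all.

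Bco1 (ENSMUSG00000031845, chr8:117095854-117133720 on mm10) stands at the entry of the provitamin A route. It was at 1.73, 1.96 and 2.19 CPM in the ENR libraries, at 1.87 and 2.04 CPM in the -VE libraries and at 5.46, 5.19 and 6.1 CPM in the Hyper libraries. Every Hyper library lay above every other library, with means of 5.58 ± 0.465 CPM (SD, n = 3) against 1.96 ± 0.228 CPM (SD, n = 3) in ENR-organoids. The edgeR log2 fold change was 1.51 ± 0.13 (SE, adjusted p = 3.84e-05) over ENR-organoids and 1.51 ± 0.15 (SE, adjusted p = 0.000175) over -VE-organoids. ENR- and -VE-organoids differed by less than their spread (log2 difference 0.00, 95% interval -0.34 to 0.33).

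The cell class with the highest Bco1 level was the enteroendocrine class, the hormone-secreting cells of the epithelium. There it was at 39.3 ± 1.6 CPM in ENR-organoids (SD, n = 3), 39.0 ± 2.68 CPM in -VE-organoids (SD, n = 2) and 53.8 ± 1.53 CPM in Hyper-organoids (SD, n = 3), while stem, transit amplifying (TA), goblet and enterocyte classes ranged from 0.892 to 9.84 CPM over all libraries with at least 20 cells of the class. Enteroendocrine cells were 2.6 to 3.29% of kept cells in ENR, 2.07 to 3.05% in -VE and 3.04 to 4.34% in Hyper libraries, and the part of these shares in the level over all cells was not tested. They gave 14.8 to 32.1% of a library's Bco1 UMIs. After each cell was thinned to 10000 UMIs, a Bco1 UMI was found in 23.6 to 42.9% of enteroendocrine cells and in 0.6 to 4.66% of TA cells (36.1 to 62.9% and 3.98 to 20.7% before thinning, at median depths of 14295 to 24908 and 45149 to 59670 UMIs). In Paneth cells Bco1 was at 0 to 7.49 CPM in ENR and 0 to 2.23 CPM in -VE libraries, from 9 and 3 UMIs. After thinning, 0 to 6.06% and 0 to 2.13% of these Paneth cells held a Bco1 UMI. In ENR- and -VE-organoids the stem, TA and goblet levels overlapped with the Paneth range and are not read as expression above background. The Hyper libraries held 2 to 10 Paneth cells each, too few for such a range. Their stem, TA and goblet levels were therefore not set against a background.

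Differences between media were also found in the stem, TA and goblet classes, whose ENR and -VE levels overlapped with those of Paneth cells. Hyper against ENR called 18% of all genes tested in the stem, 20.9% in the TA, 13.3% in the goblet and 7.4% in the enteroendocrine class, and Hyper against -VE 16.5% in the stem and 17.8% in the TA class. The stem class was 9.75 to 14.7% of kept cells in ENR, 24.3 to 28.2% in -VE and 40.0 to 44.1% in Hyper libraries, while the 4 stem markers summed over all kept cells to 1090 to 1898, 1441 to 2032 and 263 to 894 CPM. The TA class was 32.9 to 43.6, 49.1 to 53.1 and 42.4 to 50% of kept cells. The authors built the stem class from several clusters, different ones for Hyper- and ENR-organoids, and the TA cells also lay apart by medium, so values within these classes compare cells of different clusters, whose numbers the annotation used here does not give. In the stem class the log2 fold change of Bco1 in Hyper- over ENR-organoids was 1.34 ± 0.23 (SE, edgeR adjusted p = 0.00125), and in the TA class 1.79 ± 0.19 (SE, edgeR adjusted p = 8.76e-05). In the goblet class it was 1.60 ± 0.29 (SE, edgeR adjusted p = 0.00139). In the enteroendocrine class the value was 0.54 ± 0.14 (SE, edgeR adjusted p = 0.0279), under the fold of 2 and so not called. The 4 enteroendocrine markers Chgb, Chga, Cck and Neurog3 summed to 284 to 512 CPM in ENR, 215 to 319 CPM in -VE and 157 to 341 CPM in Hyper libraries.

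Rbp2 (ENSMUSG00000032454, chr9:98486115-98509781), the retinol carrier that the authors used as an enterocyte marker, showed the steepest gradient across classes. Over all kept cells it was at 385, 570 and 533 CPM in ENR, 173 and 158 CPM in -VE and 14.7, 66.5 and 53.7 CPM in Hyper libraries. The 3 groups did not overlap. Hyper-organoids were lower than ENR-organoids by a log2 difference of -3.46 ± 0.49 (SE, edgeR adjusted p = 0.000535) and lower than -VE-organoids by -1.88 ± 0.50 (SE, edgeR adjusted p = 0.0152). The second call rested on both -VE libraries (adjusted p = 0.0631 without the first and 0.0601 without the second). The value for -VE- against ENR-organoids was -1.58 ± 0.53 (SE, edgeR adjusted p = 0.114). In sums over cells, fewer cells of a type and fewer molecules per cell cannot be told apart.

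Enterocytes made up 9.78 to 13.1% of kept cells in ENR, 5.68 to 6.23% in -VE and 0.249 to 1.65% in Hyper libraries, and the 4 enterocyte markers Fabp1, Apoa1, Reg1 and Alpi summed to 1332 to 1821, 559 to 600 and 120 to 533 CPM. The part of these shifts in the Rbp2, Rbp7 and Aldh1a1 values over all kept cells was not tested. Within the enterocyte class Rbp2 stood at 4093 ± 250 CPM (SD, n = 3) in ENR- and 2002 ± 323 CPM (SD, n = 2) in -VE-organoids. The Hyper libraries with at least 20 enterocytes had 2948 and 1477 CPM, from 58 and 21 cells. The class gave 80.6 to 85.6% of a library's Rbp2 UMIs in ENR-, 54 to 69.9% in -VE- and 18.4 to 71.7% in Hyper-organoids.

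In the stem and TA classes the mean level was highest in -VE-organoids. In the stem class Rbp2 was at 23.7 ± 2.56 CPM in ENR- (SD, n = 3), 46.5 ± 14.5 CPM in -VE- (SD, n = 2) and 28.5 ± 19.1 CPM in Hyper-organoids (SD, n = 3), and Hyper against ENR gave a log2 value of 0.16 with a 95% interval of -0.80 to 1.12. In the TA class the value was -0.97 ± 0.35 (SE, edgeR adjusted p = 0.0408), just under a fold of 2, and with culture series as a blocking term it was -1.09 (edgeR adjusted p = 0.00214), which was called, as was the value of -1.45 without the third Hyper library (edgeR adjusted p = 0.00273). The goblet class, which makes mucus rather than absorbing lipid, had 68.9 ± 43.3 CPM (SD, n = 3) in ENR- and 12.3 ± 4.7 CPM (SD, n = 3) in Hyper-organoids, with -VE-organoids between them at 28.9 ± 7.59 CPM (SD, n = 2). For Hyper against ENR there, edgeR gave -2.61 ± 0.41 on the log2 scale (SE, adjusted p = 0.000624). In the first ENR library 1 goblet cell held 257 of the 417 Rbp2 UMIs of the class, and without that library the value was -1.97 (edgeR adjusted p = 0.000856). After thinning, 17.8 to 20.2% of ENR and 9.42 to 17.7% of Hyper goblet cells held an Rbp2 UMI. A share of 4 to 18.5% of Paneth cells held an Rbp2 UMI after thinning to 10000 UMIs (20.3 to 35% before), beside 8.58 to 36.5% of stem and TA cells (35.3 to 70.5% before). The ENR stem share, 14.9 to 18%, was within the Paneth range, the goblet shares overlapped with it, and neither is read as expression. The ENR TA share, 20.6 to 25.5%, lay above that range, and the Hyper TA share, 8.58 to 23.9%, overlapped with it. The ENR TA level, 31.3 to 39.1 CPM, lay within the ENR Paneth range of 19.1 to 41.7 CPM. The top of that range rests on 39 UMIs in 40 cells of the second ENR library, 19 of them in 1 cell. The ENR TA level is not read as expression above background either. In -VE-organoids the stem level, 36.3 to 56.8 CPM, and the TA level, 42.5 to 66.1 CPM, lay above the Paneth range of 13.4 to 21.2 CPM, which rests on 37 UMIs.

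Aldh1a1 (ENSMUSG00000053279, chr19:20492715-20643465), which makes retinoic acid from retinal, followed Rbp2 across most classes (Pearson r of log2(CPM + 1) = 0.863 over 50 profiles of a class in a library, which share libraries). The enteroendocrine class was an exception, with means over libraries of 113 CPM of Rbp2 and 9.78 CPM of Aldh1a1. Over all kept cells Aldh1a1 was at 101, 129 and 88.9 CPM in ENR, 39.7 and 19.3 CPM in -VE and 15.5, 11.8 and 9.09 CPM in Hyper libraries, with no overlap between the 3 groups. The log2 difference was -3.13 ± 0.31 (SE, edgeR adjusted p = 7.53e-05) for Hyper against ENR, -1.27 ± 0.32 (SE, adjusted p = 0.0115) for Hyper against -VE and -1.85 ± 0.34 (SE, adjusted p = 0.0191) for -VE against ENR. Without the first -VE library the Hyper against -VE value was -0.65 (edgeR adjusted p = 0.111). Without the second -VE or the second ENR library, -VE against ENR was no longer called (edgeR adjusted p = 0.0936 and 0.0644). Reads of Aldh1a1 and of its close relative Aldh1a7 may be split by the counting.

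In the enterocyte class Aldh1a1 was at 788 ± 153 CPM (SD, n = 3) in ENR-, 455 and 176 CPM in -VE- and 291 and 138 CPM in Hyper-organoids. The stem class had 16.5 ± 4.96 CPM (SD, n = 3) in ENR- and 11.3 ± 3.57 CPM (SD, n = 3) in Hyper-organoids, and the log2 value of -0.67 ± 0.28 was not called (SE, edgeR adjusted p = 0.0727). The TA class value, -1.20 ± 0.31, was called (SE, edgeR adjusted p = 0.0104). The Aldh1a1 level in ENR TA cells, 13.1 to 22.9 CPM, overlapped with that in ENR Paneth cells, 8.82 to 16.1 CPM, as did the share of cells with a UMI after thinning to 10000 UMIs (11.9 to 17.6% of TA, 10.1 to 17.1% of stem and 8 to 12.1% of Paneth cells; before thinning 36.1 to 51.4%, 27.1 to 43.8% and 15.6 to 25%, at median depths of 45149 to 54458, 31294 to 40398 and 12989 to 22273 UMIs). The stem and TA levels are therefore not read as expression above background. For every 100 Rbp2 UMIs there were 15.5 to 22.5 Aldh1a1 UMIs in ENR enterocytes, 33.4 to 71.4 in ENR TA cells, 42.9 to 99.3 in ENR stem cells and 6.9 to 12 in ENR enteroendocrine cells. There were 21.3 to 30.2 in ENR goblet and 38.5 to 73.3 in ENR Paneth cells, so that the goblet range overlapped with that of enterocytes, and the Paneth range with those of stem and TA cells.

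Rbp7 (ENSMUSG00000028996, chr4:149449687-149454978), a retinoid-binding protein that the authors used to mark enterocyte progenitors, had its highest level in that class. Over all kept cells it was at 26.7, 29 and 45.5 CPM in ENR, 8.85 and 7.33 CPM in -VE and 2.85, 1.26 and 4.07 CPM in Hyper libraries, and the 3 groups did not overlap. For Hyper against ENR edgeR gave a log2 value of -3.65 ± 0.40 (SE, adjusted p = 0.000136). Hyper against -VE gave -1.59 ± 0.41 (SE, edgeR adjusted p = 0.0142), which was lost without the first -VE library (adjusted p = 0.0692). The -VE against ENR value was -2.06 ± 0.43 (SE, edgeR adjusted p = 0.029), and it was lost when any 1 of the 5 libraries of these groups was left out (adjusted p from 0.0584 to 0.196).

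Rbp7 was lower in Hyper-organoids in the proliferating classes too. In the stem class it stood at 13.2 ± 3.97 CPM in ENR-organoids (SD, n = 3), 5 ± 1.19 CPM in -VE-organoids (SD, n = 2) and 3.19 ± 1.85 CPM in Hyper-organoids (SD, n = 3). Hyper against ENR was called in the stem class (log2 -2.16 ± 0.42 SE, edgeR adjusted p = 0.00244), and in the TA class (-3.24 ± 0.34 SE, adjusted p = 7.44e-05). The goblet class, at 5.68 to 7.11 CPM in ENR libraries, overlapped with the ENR enteroendocrine range of 0.777 to 6.16 CPM, and its value of -1.90 is not read as a change of expression. Enterocyte progenitors were 22.2 to 34.5% of kept cells in ENR, 4.29 to 4.39% in -VE and 0.0852 to 0.107% in Hyper libraries. In that class Rbp7 was at 55.7 ± 7.92 CPM (SD, n = 3) in ENR- and 30.8 ± 0.715 CPM (SD, n = 2) in -VE-organoids, and the 3 Hyper libraries held 8 such cells in all. Paneth and enteroendocrine cells had 0 to 6.16 CPM.

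**Figure D2:**
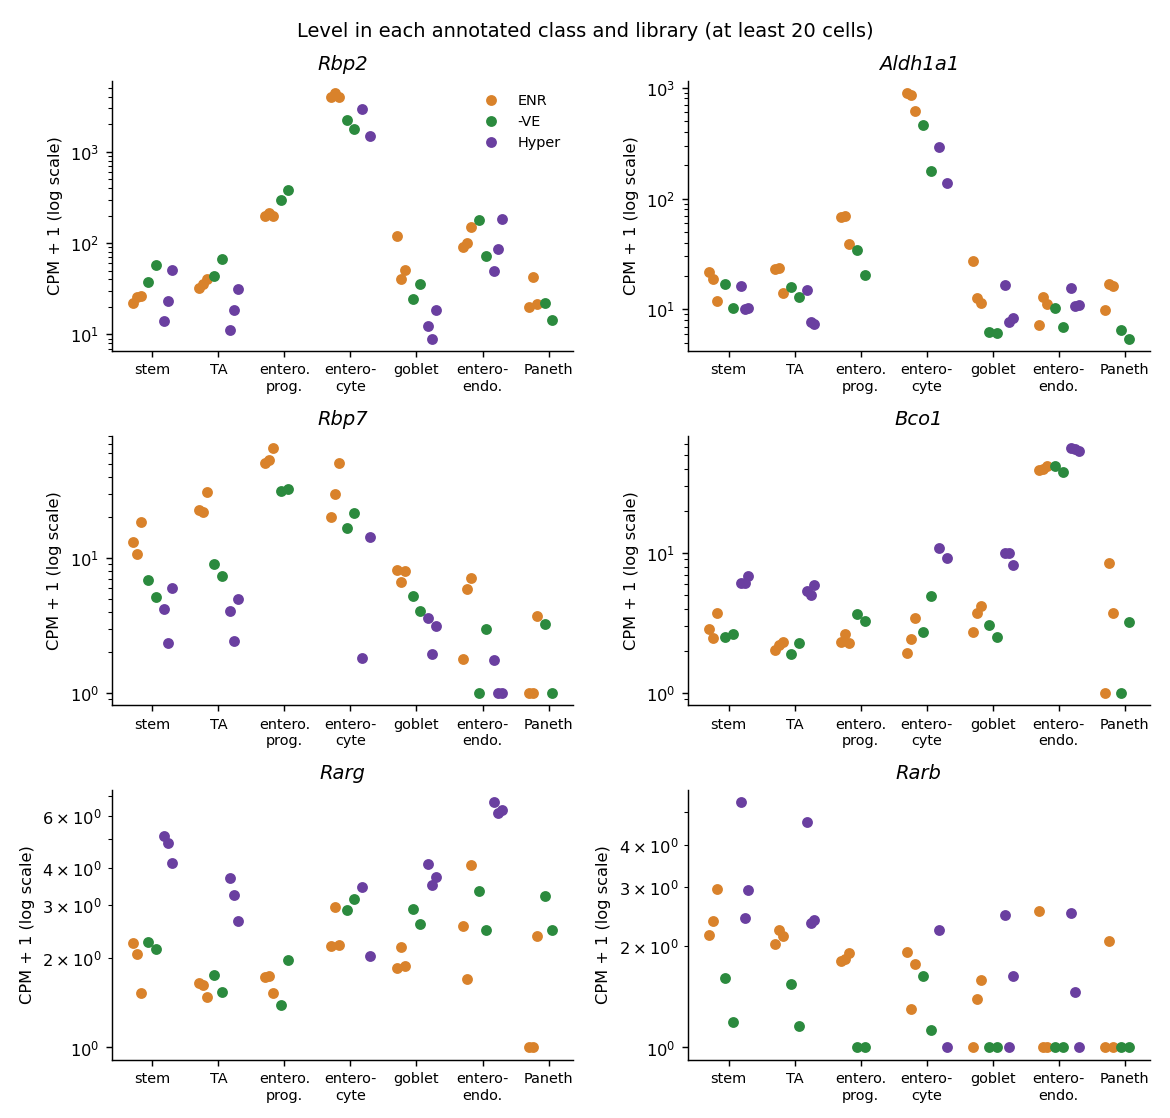
Level of 6 genes (y axis, CPM + 1 on a log scale) in 7 annotated classes (x axis), a dot for each library with at least 20 cells of the class, coloured by medium. Rbp2 and Aldh1a1 peak in enterocytes, Rbp7 in enterocyte progenitors and Bco1 in enteroendocrine cells, and the Hyper dots of Rarg and Bco1 lie above the ENR and -VE dots in the stem and TA classes.

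Crabp1 (ENSMUSG00000032291, chr9:54764748-54773110), which binds retinoic acid in the cytosol, was nearly absent outside Hyper-organoids. The ENR libraries held 0, 0 and 2 UMIs, the -VE libraries 5 and 0, and the Hyper libraries 167, 90 and 55, or 1.13, 0.597 and 0.58 CPM. Summed over libraries the level in Hyper-organoids was 130-fold that in ENR-organoids (95% exact interval 35.7 to 1079) and 49.1-fold that in -VE-organoids (20.8 to 152), intervals that cover counting error only. Since only the Hyper libraries brought Crabp1 past the filter on low counts, its call by edgeR is not read as a test.

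TA cells gave 63.6 to 74.4% and stem cells 25.6 to 32.7% of the Crabp1 UMIs of a Hyper library, beside 49.6 to 56.9% and 35.9 to 40.2% of all its UMIs. In the ENR stem class there were 0 UMIs in 32879023, against 90 in 137986958 in the Hyper stem class, which made the level at least 7.15-fold higher when set against 3 counts over the ENR group. A Crabp1 UMI was found in 120, 70 and 48 Hyper cells, at most 7 in a cell, or 0.374 to 1.35% of cells thinned to 10000 UMIs (1.99 to 4.27% before). A UMI of the epithelial markers was present in all of these cells, as in nearly all kept cells (99.96 to 100%), so that it does not set them apart. A stromal marker UMI was present in 1.43 to 4.17% of them and in 2.32 to 3.84% of all kept cells of the same libraries. A leukocyte marker UMI was present in 5.83, 0 and 4.17% of the Crabp1 cells of the 3 Hyper libraries and in 6.54, 1.99 and 3.98% of all their kept cells. An endothelial marker UMI was present in 75.8, 65.7 and 85.4% of the Crabp1 cells, above the 63.6, 59.3 and 61.1% of all kept cells, and its part in the Crabp1 level was not tested. All these marker shares are from cells that were not thinned. Median depths in Hyper libraries were 46699 to 56916 UMIs in TA and 33335 to 42140 UMIs in stem cells, and the part of depth was not tested.

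Crabp2 (ENSMUSG00000004885, chr3:87948666-87953376), the relative that hands retinoic acid to the receptors, was low everywhere, with 9 to 53 UMIs in a library. It was at 0.207, 0.0752 and 0.143 CPM in ENR, 0.222 and 0.152 CPM in -VE and 0.36, 0.285 and 0.264 CPM in Hyper libraries. The Hyper libraries lay above all others, by a log2 value of 1.11 ± 0.38 over ENR-organoids (SE, edgeR adjusted p = 0.0365). That call was lost when the second or the third ENR library or the first or second Hyper library was left out (adjusted p from 0.0628 to 0.105) and with DESeq2 (adjusted p = 0.0597). Hyper against -VE was not called (log2 0.71, 95% interval -0.24 to 1.66).

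Among the receptors, Rara (ENSMUSG00000037992, chr11:98927818-98974942) was the most even gene of the list. It ranged from 12.4 to 13.8 CPM in ENR, was at 14.6 and 13.1 CPM in -VE and ranged from 12.7 to 16.1 CPM in Hyper libraries, and the groups overlapped in all 3 comparisons. The 95% interval of the log2 difference between Hyper- and ENR-organoids was -0.17 to 0.31, which leaves out a fold of 2 in either direction. Over classes its mean level lay between 12.1 and 14.6 CPM in stem, TA, enterocyte progenitor, enterocyte and goblet cells, and at 7.16 and 7.84 CPM in enteroendocrine and Paneth cells.

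Rarg (ENSMUSG00000001288, chr15:102234938-102257517) was higher in Hyper-organoids. It was at 0.807, 0.893 and 0.669 CPM in ENR, 1.07 and 0.901 CPM in -VE and 3.11, 2.75 and 2.37 CPM in Hyper libraries, and no Hyper library overlapped with the others. The log2 fold change was 1.79 ± 0.18 over ENR- (SE, edgeR adjusted p = 8.81e-05) and 1.48 ± 0.21 over -VE-organoids (SE, adjusted p = 0.00082). The values were close to this in the stem class (1.81 ± 0.27 SE, edgeR adjusted p = 0.000503) and in the TA class (1.80 ± 0.25 SE, adjusted p = 0.000425). With each cell thinned to 10000 UMIs the stem value of Rarg was 1.18 and no longer called (edgeR adjusted p = 0.0537). In the goblet class it was 1.38 ± 0.41 (SE, edgeR adjusted p = 0.0225), a call lost without the first or the third ENR library, without the first Hyper library and with DESeq2.

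The levels of Rarg by class were 3.72 ± 0.492 CPM in stem cells, 2.2 ± 0.525 CPM in TA cells and 5.35 ± 0.279 CPM in enteroendocrine cells of Hyper-organoids (SD, n = 3), against 0.939 ± 0.371, 0.585 ± 0.0891 and 1.78 ± 1.21 CPM in ENR-organoids (SD, n = 3). The ENR enteroendocrine value rests on 6 UMIs, and no test value of Rarg in that class is given here. Only 4 of the 9 members were tested in that class, and 0 of them were called for Hyper against ENR. The ENR stem and TA levels lay within the ENR Paneth range of 0 to 1.37 CPM, which rests on 1 UMI. In a small class that the annotation codes RSC, present in Hyper- and -VE-organoids only, the Hyper libraries had 7.49, 7.52 and 7.94 CPM, from 2, 5 and 12 Rarg UMIs in 5, 14 and 26 cells. The -VE libraries had 3.05 and 4.9 CPM, from 1 and 3 UMIs in 8 and 17 cells. All but the third Hyper library thus lie under the limit of 20 cells used for the other classes, and these values are given as counts only.

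Rarb (ENSMUSG00000017491, chr14:16430839-16819156), whose promoter window carries the DR5 printed above, separated the 3 groups in another order. It was lowest in the -VE libraries, at 0.522 and 0.152 CPM (61 and 25 UMIs). The ENR libraries had 0.952, 1.01 and 1.11 CPM and the Hyper libraries 3.55, 1.23 and 1.46 CPM, so that no 2 groups overlapped. The first Hyper library, at passage 1, stood apart from the other 2.

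For Rarb, edgeR put Hyper- over -VE-organoids at a log2 value of 2.66 ± 0.62 (SE, adjusted p = 0.00917). It was 2.60 ± 0.61 in the stem class (SE, edgeR adjusted p = 0.0076) and 2.54 ± 0.61 in the TA class (SE, adjusted p = 0.00917), and all 3 calls were lost without the second -VE library, where the Rarb values were 2.01 over all cells (adjusted p = 0.0577), 1.93 in stem (0.0736) and 1.83 in TA cells (0.0668). Over all cells the value was 3.77 without the first -VE library and 2.03 without the first Hyper library, both called. Hyper against ENR was not called (log2 1.02, 95% interval -0.12 to 2.17, adjusted p = 0.111), and without the first Hyper library it was at 0.39. The value for -VE against ENR, -1.63 ± 0.61, was not called by edgeR (SE, adjusted p = 0.151) and was called by DESeq2 (adjusted p = 0.0362). A Rarb UMI was found in 0.837 to 1.3% of ENR cells, 0.15 to 0.435% of -VE cells and 1.36 to 3.24% of Hyper cells thinned to 10000 UMIs. Of the Rarb UMIs of a Hyper library, 39.8 to 50.7% came from stem and 44.9 to 57% from TA cells, which held 35.9 to 40.2% and 49.6 to 56.9% of all UMIs.

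**Figure D3:**
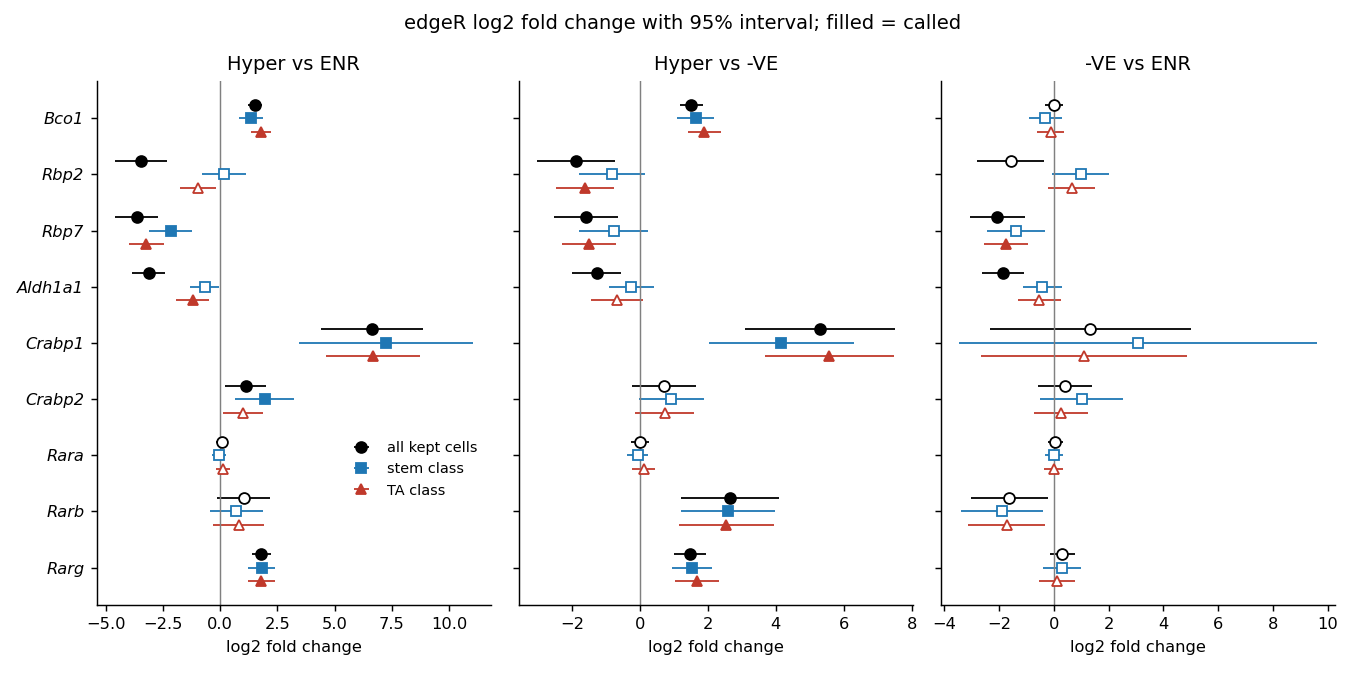
edgeR log2 fold change (x axis) of the 9 genes (y axis) in the 3 comparisons of media, over all kept cells (black circles), in the stem class (blue squares) and in the TA class (red triangles), with 95% intervals; filled symbols were called. Rbp2 lies at -3.46 over all cells and at 0.16 in stem cells for Hyper against ENR, whereas the Rarg symbols lie together at 1.79, 1.81 and 1.80.

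Genes whose profile over the 50 class and library combinations was most like that of a member were ranked by Pearson r among 9765 genes with a mean of at least 5 CPM. Snap25 (r = 0.944), a component of the secretory vesicle fusion machinery, came first for Bco1, before Tspyl1 (0.938) and Aplp1 (0.938). Ugt2b5 (0.955), Gstm4 (0.948) and Nat8 (0.944), all conjugating enzymes, came first for Aldh1a1. Ceacam18 (0.919), St3gal4 (0.909) and Erich4 (0.907) came first for Rbp2, and Pycard (0.855), Larp1b (0.855) and Endog (0.848) for Rbp7. For Rarg they were Kbtbd11 (0.808), Asah1 (0.793) and Hspb1 (0.79), and for Rara they were Idh3a (0.815), Slc16a1 (0.809) and Ubac2 (0.805). Rarb, Crabp1 and Crabp2, under 1 CPM on average, were not ranked.

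The other genes of the pathway were read from a list of 72, of which 59 passed the filter. This list too was chosen with earlier results of these data known, so its counts are descriptions. Between Hyper- and ENR-organoids 10 were called higher and 16 lower (18.2% and 4.75% of all genes), with a median log2 fold change of -0.28 beside -0.01 over all genes. Against -VE-organoids 8 were higher and 10 lower (16.1% and 2.51% of all genes), and between -VE- and ENR-organoids 1 was higher and 10 lower (1.35% and 1.2%). Most of the calls between -VE- and ENR-organoids were lost without the second -VE library. The counts by role below stand beside these shares of all genes. Listed under carotenoid cleavage besides Bco1 were Bco2 and Isx, named here after their values were seen, and Isx is not itself a cleaving enzyme. Of these 2 tested genes, 2 were called lower in Hyper- than in ENR-organoids and 0 higher. The count was the same within the stem and TA classes. Against -VE-organoids 1 of the 2 was called lower over all kept cells. Of 7 tested genes that form or cleave esters, 4 were called lower in Hyper- than in ENR-organoids and 0 higher. All of them but Ces1f are named here after their values were seen. Among the 4 enzymes that esterify, Dgat1 was called lower (log2 -1.51, edgeR adjusted p = 3.36e-06), and Lrat, the main retinol esterifying enzyme, at -0.43, Dgat2 at 0.35 and Awat2 at 0.08 were not called. The other 3 called genes, Ces1d, Ces1e and Ces1f, are carboxylesterases, which cleave esters, and the largest value was that of Ces1f (log2 -5.96 ± 0.24 SE, edgeR adjusted p = 1.45e-06), which went from 36.3, 49.1 and 39.9 CPM to 0.733, 0.822 and 0.39 CPM. Enterocyte markers were lower in Hyper- than in ENR-organoids too (Fabp1 by a log2 value of -2.30, Apoa1 by -3.90), and their part in the counts over all kept cells was not tested. Within the stem class Dgat2 was called higher and the 3 carboxylesterases lower of the 7 tested, or 1 and 3 genes, beside 15.2% and 2.8% of all genes, and within the TA class 0 were higher and the same 3 lower of 7, beside 17.2% and 3.78%.

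Of 19 tested genes of retinol oxidation and retinal reduction 6 were lower and 1 higher in Hyper- than in ENR-organoids, with Adh4 at -6.44 ± 0.42 (SE, edgeR adjusted p = 9.96e-06) and Adh7 at -4.08 ± 0.35 (SE, adjusted p = 3.78e-05). Adh4, at 7.14, 11 and 11.9 CPM in ENR libraries, stood at 1 and 0.621 CPM in -VE and at 0.0543, 0.179 and 0.105 CPM in Hyper libraries. The same 2 genes, with Adh1 (-1.81), Rdh7 (-1.77), Akr1b7 (-1.56) and Dhrs3 (-1.54), were also called lower in -VE- than in ENR-organoids, at edgeR adjusted p between 0.0036 and 0.0491. Of the 3 tested genes of retinal oxidation besides Aldh1a1, named here after their values were seen, Aldh1a3 was called higher (1.55, edgeR adjusted p = 0.0208), Aldh1a7 lower (-1.36, adjusted p = 0.00412) and Aldh8a1 was at 0.30. Members of the Ces1, Rdh, Akr1b and Aldh1a families have close relatives, and their counts may be split between them.

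Of the binding and transport genes, 5 of 8 tested were called higher and 1 lower in Hyper- than in ENR-organoids, a count that includes Lrp2, which passed the filter only through the Hyper libraries. Lpl, the lipoprotein lipase that frees lipid and retinyl ester from lipoproteins, had the largest value of the list, 9.07 ± 0.34 (SE, edgeR adjusted p = 1.12e-06), with 7, 5 and 1 UMIs in ENR and 3442, 3298 and 2474 UMIs in Hyper libraries. Lrp2, an endocytic receptor for the plasma retinol carrier, had 1, 5 and 0 UMIs in ENR, 3 and 1 in -VE and 26, 60 and 10 in Hyper libraries. Scarb1, a carotenoid and lipid receptor, was the gene called higher in -VE- than in ENR-organoids (1.45 ± 0.20 SE, edgeR adjusted p = 0.00803).

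Of 10 tested retinoid X receptors, partner receptors and cofactors, 0 were called by edgeR in any of the 3 comparisons at a fold of 2. DESeq2 called none of them either. Without a fold limit, 6, 5 and 4 of the 10 had an unadjusted edgeR p under 0.05 in Hyper against ENR, Hyper against -VE and -VE against ENR (61.7, 54.6 and 24% of all genes), and 6, 5 and 1 an adjusted p under 0.05 (56.8, 47.6 and 7.88% of all genes), with log2 values from -0.75 to 0.35 over the 3 comparisons. Of 9 tested genes known to respond to retinoic acid, 3 were called higher and 1 lower in Hyper- than in ENR-organoids. The 3 were the transcription factor Meis1, Rarres1 and the nuclear receptor Nr2f1. Meis1 and Rarres1 passed the filter only through the Hyper libraries, and Ccr9, the lower gene, named after its values were seen, only through ENR libraries, so their calls had to follow. Meis1 had 5, 8 and 5 UMIs in ENR, 8 and 3 in -VE and 150, 425 and 202 in Hyper libraries. Rarres1 had 0, 3 and 0 UMIs in ENR, 1 and 0 in -VE and 25, 21 and 18 in Hyper libraries. Nr2f1 was called at a log2 value of 3.31 over ENR- and 3.63 over -VE-organoids (edgeR adjusted p = 0.000424 and 0.00105). Cyp26b1, which clears retinoic acid and is the 1 tested gene of that role, was named after its values were seen and was called lower in Hyper- than in ENR-organoids (-3.31, edgeR adjusted p = 0.00969).

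**Figure D4:**
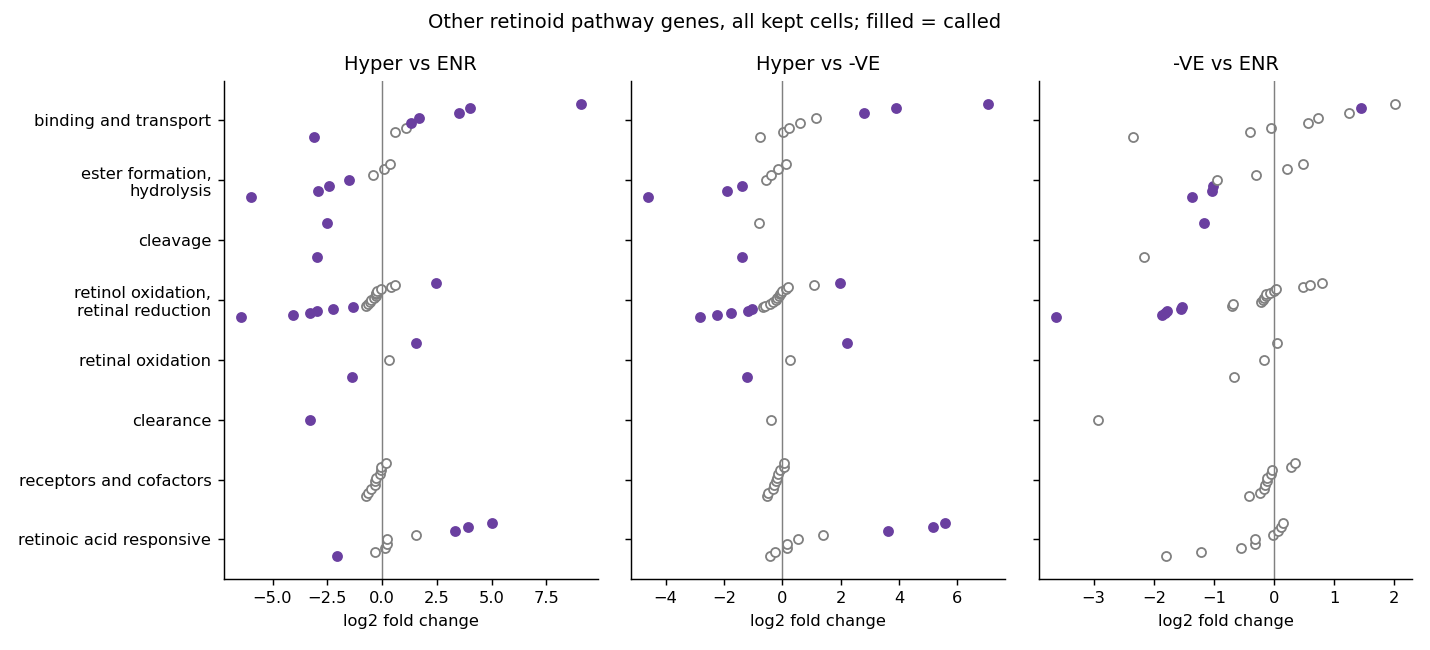
edgeR log2 fold change (x axis) of the 59 tested other pathway genes by role (y axis) in the 3 comparisons of media over all kept cells; each circle is a gene and filled circles were called. In Hyper against ENR 5 of 8 binding and transport genes lie on the right and 4 of 7 genes that form or cleave esters on the left as filled circles, 3 of them carboxylesterases, while none of the 10 receptors and cofactors is filled.

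In the colon there was 1 library for each state, so the values carry counting intervals and no test. The normal library held 1132 kept cells and 19906845 UMIs and the DSS library 1933 cells and 32397122 UMIs. Summed markers of neutrophils were at 0.0502 and 2247 CPM in the normal and DSS library, of myeloid cells at 5.22 and 150 CPM. Those of B cells were at 4.42 and 60.8 CPM, while Paneth markers were at 815 and 5.53 CPM and colonocyte markers at 7403 and 5736 CPM. The part of these shifts in the values was not tested. Aldh1a1 was at 93.5 CPM (95% exact Poisson interval 89.3 to 97.9) in the normal and 93.7 CPM (90.4 to 97.1) in the DSS library. Rbp2 was at 11.3 CPM (9.83 to 12.8) in the normal and 33.3 CPM (31.4 to 35.4) in the DSS library, a ratio of 2.96 (2.56 to 3.44). On the log2(CPM + 1) scale this difference was 1.49, and 3.55% of the 12440 genes with at least 1 CPM in either library were higher by 1 or more. In kept cells without a UMI of the leukocyte marker Ptprc the Rbp2 ratio was 2.98 (2.58 to 3.46).

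Most of the Rbp2 UMIs of the DSS library lay in clusters that the normal library hardly held. Cluster 9, led by Ido1, Clu and Prss22, had 438 Rbp2 UMIs in 108 DSS cells (171 CPM, 156 to 188) and 2 normal cells. Cluster 7, led by Atp12a and Tgm3, had 297 UMIs in 139 DSS cells (136 CPM, 121 to 153) and 23 UMIs in 8 normal cells. In the normal library 65 of its 224 Rbp2 UMIs lay in cluster 12, led by 2010109I03Rik and Slfn4, with 104 CPM (80.4 to 133) in 93 normal cells and 1 DSS cell. Outside clusters 7 and 9 the 2 libraries were at 10.2 CPM (8.8 to 11.7) and 12.5 CPM (11.2 to 13.9), a comparison chosen after the data were seen that keeps cluster 12. Outside clusters 7, 9, 12 and 17, the 4 with over 100 CPM of Rbp2 in a library with at least 20 of their cells, the levels were 7.1 CPM (5.96 to 8.4) in the normal and 11.6 CPM (10.3 to 12.9) in the DSS library, a ratio of 1.63 (1.33 to 2.01), likewise chosen after the data were seen. Over all barcodes, kept or not, the ratio was 1.73 (1.59 to 1.87).

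Aldh1a1 in the colon was highest in cluster 6, led by Slc51a, Cyp2c55 and Car1, with 423 CPM (390 to 457) in the normal and 462 CPM (439 to 486) in the DSS library. In cluster 1, led by Ces1g and Ugt2b5, it was at 140 CPM (125 to 155) and 159 CPM (149 to 170). Cluster 17, found in the DSS library only, with 57 cells and led by Ces2a, had 409 CPM (322 to 511) of Aldh1a1 and 138 CPM (90.1 to 202) of Rbp2, from 77 and 26 UMIs.

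Rara was at 14.3 CPM (12.7 to 16) and 16.4 CPM (15 to 17.8), and Rarg at 6.23 CPM (5.18 to 7.43) and 5.99 CPM (5.18 to 6.89), in the normal and DSS colon. Rbp7 had 25 and 53 UMIs, 1.26 CPM (0.813 to 1.85) and 1.64 CPM (1.23 to 2.14), and was highest in cluster 13, led by cell cycle genes, at 7.43 and 6.87 CPM. Bco1 had 15 and 46 UMIs, 0.754 CPM (0.422 to 1.24) and 1.42 CPM (1.04 to 1.89). In cluster 16, enteroendocrine-like by Chgb and Chga, Bco1 had 8 UMIs in 59 cells of both libraries (18.1 CPM, 7.84 to 35.8). Rarb had 6 and 2 UMIs and Crabp2 had 6 and 7. Crabp1 had 0 UMIs in both libraries, which allows up to 0.151 CPM in the normal and 0.0926 CPM in the DSS colon.

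**Figure D5:**
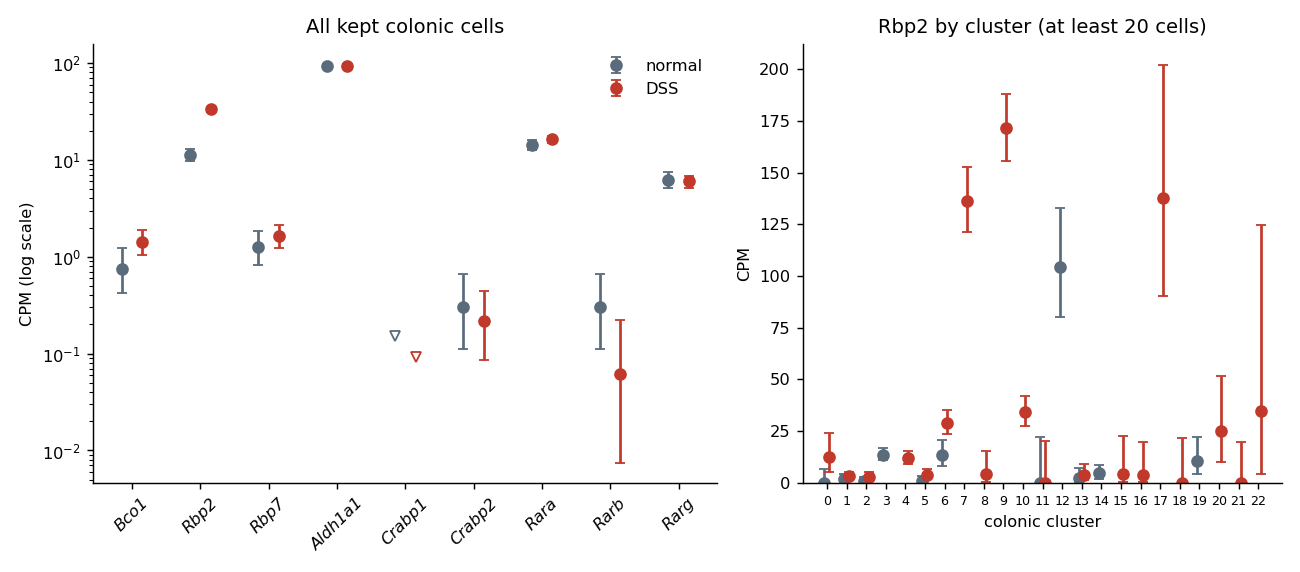
Left, level of the 9 genes (y axis, CPM on a log scale) in all kept cells of the normal and DSS colonic libraries with 95% exact Poisson intervals; open triangles mark the 3-count limit where no UMI was found (Crabp1). Right, Rbp2 level (CPM, from 0) by colonic cluster for libraries with at least 20 cells in it; clusters 7, 9 and 17 of the DSS library reach 136, 171 and 138 CPM, cluster 12 of the normal library reaches 104 CPM, and the others stay at or under 34.5 CPM.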

How the data were processed

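Per the labels and the methods, the authors aligned droplet-based single-cell reads to mm10 with Cell Ranger (3.0.0 in the methods, 3.1.0 in the matrix headers), filtered cells with Seurat 3.1.4 and deposited UMI counts per gene and cell with a cell annotation. The methods state a minimum of 1500 genes and at most 25% mitochondrial UMIs, whereas kept cells had from 501 genes and at most 20% mitochondrial UMIs. The count table and the library matrices were compared for 80 genes in all kept cells (2016320 entries) and 0 differed. The methods state no removal of doublets and none was made here, and any 2 libraries shared at most 5 barcodes.

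UMI counts were summed per library, or per annotated class and library with at least 20 cells, and given as CPM, on TMM-scaled library sizes for whole libraries and of all UMIs in the cells for classes, colonic cells and marker sums. Groups were compared with edgeR 4.0.16 (TMM, filterByExpr, quasi-likelihood test; R 4.3.3), all 8 organoid libraries sharing an estimate of the spread, and p-values were adjusted by Benjamini-Hochberg over all genes tested. Shares of cells with a UMI were computed after thinning each cell to 10000 UMIs, which left out 414 ENR, 370 -VE and 244 Hyper cells. Intervals and the limit for a count of 0 cover counting error only. The alternatives were other size factors, DESeq2 1.42.0, other filters, all barcodes, thinned cells, a block for the culture series and each library left out.

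Deviations from the group means correlated within series between ENR and Hyper libraries (r = 0.268, 0.217 and 0.538). ENR and Hyper libraries of different series ranged from -0.412 to 0.192, so the prefixes were not shown to pair libraries. The main fits left the libraries unpaired, and a block for the series was an alternative. Within series the values were 0.176 and -0.0102 for ENR and -VE, and 0.206 and 0.134 for -VE and Hyper. The deviations of the 2 -VE libraries mirror each other, so these values cannot show pairing. The labels do not say that libraries came from separate animals, so p-values measure the spread between these libraries. Classes were defined by the authors from the same cells, Rbp2 and Rbp7 among their markers, so differences between classes are descriptions. Members and gene lists were chosen with earlier results of these data known. Besides the 9 members, the text names up to 8 called pathway genes per comparison by size of change, and for each member of at least 1 CPM the 3 genes most alike. A pathway gene that this rule selects is not reported here. Genes named after their values were seen are marked as such.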

Additional observations from a re-analysis of the deposited data

Results flagged for a closer look

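For 3 genes the effect of the medium differed between the TA and the stem class, by a test of the difference itself in edgeR over 14704 genes. For Hyper against ENR the effect in TA minus that in stem cells was -1.04 for Rbp7, -1.06 for Rbp2 and -0.58 for Aldh1a1 on the log2 scale, where 2216 genes passed. For Hyper against -VE it was -0.68 for Rbp7, -0.74 for Rbp2 and -0.47 for Aldh1a1, where 1716 genes passed. In each case the Hyper value was lower relative to the other medium in TA than in stem cells.

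The classes were drawn by the authors from these same cells with Rbp2 and Rbp7 among their markers, so the differences are given as descriptions, without p-values. The share of ENR stem cells with an Rbp2 UMI and the ENR TA level of Rbp2 were within the Paneth ranges. The ENR stem and TA levels of Aldh1a1 overlapped with those of Paneth cells. The Aldh1a1 difference no longer passed without the second ENR library against ENR, or without the second -VE or the second Hyper library against -VE, and the Rbp7 difference against -VE no longer passed without the second -VE library. What the differences rest on was not tested.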

How the results depend on the processing

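Over all kept cells, 393 of 414 alternative fits of the 9 genes kept the side of the threshold, 17 lost a call, 4 gained one and 0 called values changed sign. Values that were not called changed sign in some of these fits for Rara in the 3 comparisons and for Bco1 and Crabp1 in -VE against ENR. The lost calls of values printed above are given beside them. Rbp2 in -VE against ENR was gained with DESeq2 (adjusted p = 0.0245), over all barcodes (edgeR adjusted p = 0.0382) and without the first Hyper library (0.00297). Restricting the test to genes of at least 10 CPM in 2 libraries, which leaves fewer genes, lowered the genes called from 3675 to 800 for Hyper against ENR, from 2985 to 528 for Hyper against -VE and from 409 to 166 for -VE against ENR, in the stem class from 2509 to 627, 2296 to 504 and 70 to 41, and among other pathway genes from 26 to 15 and from 18 to 8. All barcodes gave 669 for -VE against ENR. In the stem class -VE against ENR gave 154 with DESeq2 and 183 with no filter. Leaving out a library gave 3384 to 3806, 2218 to 2977 and 96 to 519 genes in the 3 comparisons, 2199 to 2531, 1668 to 2319 and 8 to 149 in the stem class, and 25 to 28, 17 to 18 and 2 to 11 of the pathway genes. The low ends for -VE against ENR came without the second -VE library (96 genes and 2 pathway genes) and, in the stem class, without the first ENR library (8). In the colon the log2 difference of Rarb was -1.31 with a pseudocount of 0.1 CPM (-0.29 with 1), and that of Rbp2 was 0.76 over all barcodes and 0.27 outside clusters 7 and 9 and 0.64 outside clusters 7, 9, 12 and 17, the last 2 chosen after seeing the data. The cause of these shifts was not tested.

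With the culture series as a block, pairing same-numbered libraries, 3780, 3063 and 439 genes were called, 2576, 2350 and 140 in the stem class, and 28, 19 and 12 pathway genes. The block changed no call of the 9 genes over all kept cells. By class it added Rbp2 in TA cells for Hyper against ENR, and Rbp2 and Rbp7 in stem and goblet cells for Hyper against -VE. For -VE against ENR it added Rbp2 and Rbp7 in stem cells and Aldh1a1 in goblet cells. The prefixes were not shown to pair libraries in any of these comparisons.

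Crabp1, Crabp2 and Rarb rest on few UMIs, the -VE group on 2 libraries and the colon on 1 library for each state, so smaller differences were not detectable there.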
